A study of Mus musculus with 6 samples.

Results

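The genes described here are ligands, receptors, inhibitors and intracellular effectors of Wnt signalling, chosen by symbol from a list of 49. Of these, 46 were among the 21719 genes of the count table, and Ror2, Sfrp2 and Wif1 were not analysed here. RNA was sequenced from the mouse podocyte line MPC5, which carries a temperature-sensitive immortalising gene, in 2 groups of 3 libraries labelled Setdb2KO and Setdb2WT. Every culture of both groups was kept in high glucose, so no comparison with normal glucose is possible. Setdb2 belongs to the SET-domain proteins, a family of histone methyltransferases, and the comparison asks which Wnt pathway transcripts differ between the labels. Whether a label stands for 1 clone or several, and whether libraries are separate cultures, is not given. The p-values therefore reflect the spread among the sequenced libraries alone, and that spread may be technical.

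Wnt proteins are secreted lipid-modified ligands that bind Frizzled receptors together with a co-receptor. In the β-catenin branch, ligand binding recruits Dishevelled proteins and stops a destruction complex of Axin, APC and GSK3β from marking β-catenin for degradation, after which β-catenin enters the nucleus and acts with TCF and LEF factors. Other branches act through planar cell polarity proteins or calcium. In the kidney, Wnt signals take part in nephron formation, and sustained β-catenin activity in podocytes is known from animal models to accompany proteinuria.

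The libraries held 36461449 to 37129174 reads each. Setdb2 itself had 17, 15 and 25 reads in Setdb2KO-labelled libraries and 12, 10 and 9 in Setdb2WT-labelled ones, a log2 fold change of 0.73 (SE 0.38) that did not pass (adjusted p = 0.088). Every adjusted p comes from the quasi-likelihood test of edgeR, adjusted by Benjamini-Hochberg over all genes tested. The targeted gene was thus not lower in Setdb2KO-labelled libraries, and whether the edit removes its RNA is not given, so the groups are called by their labels. Smad3, named in the series title, fell 2.62-fold. Of the podocyte genes, Wt1, which defines the cell type, had 0, 0 and 1 reads in Setdb2KO-labelled libraries and 1, 2 and 0 in Setdb2WT-labelled ones. Podxl, a sialomucin of the podocyte surface, fell to 4.96 ± 0.38 CPM in Setdb2KO-labelled libraries, against 50.5 ± 1.6 CPM in Setdb2WT-labelled ones (SD, n = 3 each). Synpo and Nes fell as well, while Cd2ap and Foxc2 rose. Summed podocyte markers (9 of 12 in the table) came to 891 to 999 CPM (counts scaled to library size, here with TMM factors) in Setdb2KO-labelled libraries and to 841 to 844 CPM in Setdb2WT-labelled ones, of which Cd2ap alone averaged 633 ± 67 CPM in Setdb2KO-labelled libraries and 415 ± 4.1 CPM in Setdb2WT-labelled ones. Summed tubular markers (6 of 8) came to 424 to 447 CPM in Setdb2KO-labelled libraries and 1084 to 1099 CPM in Setdb2WT-labelled ones. Of the 6 genes, 3 lay under 1 CPM in every library. Aqp1 alone averaged 51.7 ± 1.8 CPM in Setdb2KO-labelled libraries and 468 ± 3.1 CPM in Setdb2WT-labelled ones. Lrp2 and Cdh16 were also called lower. Slc12a3 was called higher, with 16, 12 and 14 reads in Setdb2KO-labelled libraries and 0, 0 and 1 in Setdb2WT-labelled ones. Fibroblast markers (5 of 6) summed to 1.59 to 2.35 CPM in Setdb2KO-labelled libraries and 6.64 to 8.14 CPM in Setdb2WT-labelled ones, and mesangial markers (4 of 5) to 5.58 to 5.84 CPM in Setdb2KO-labelled libraries and 15.0 to 15.7 CPM in Setdb2WT-labelled ones. Of the 5 fibroblast genes, 4 lay under 1 CPM in every library. Col1a1 averaged 1.68 ± 0.26 CPM in Setdb2KO-labelled libraries and 7.24 ± 0.85 CPM in Setdb2WT-labelled ones. Col1a2 had 29 reads summed over each group and was not tested. Of the 4 mesangial genes, 2 lay under 1 CPM in every library. Pdgfrb averaged 4.12 ± 0.62 CPM in Setdb2KO-labelled libraries and 11.4 ± 0.38 CPM in Setdb2WT-labelled ones. Parietal epithelial markers (5 of 5) summed to 564 to 607 CPM in Setdb2KO-labelled libraries and 864 to 875 CPM in Setdb2WT-labelled ones, endothelial markers (6 of 6) to at most 13.4 CPM in Setdb2KO-labelled libraries and at most 11.8 CPM in Setdb2WT-labelled ones, and immune markers (3 of 5) to 9.38 to 11.8 CPM in Setdb2KO-labelled libraries and 13.7 to 15.2 CPM in Setdb2WT-labelled ones. Of the parietal genes, Pax2, Cldn1 and Krt8 were called lower. Pax8 was called higher, at 299 ± 13 CPM in Setdb2KO-labelled libraries and 224 ± 0.54 CPM in Setdb2WT-labelled ones. The part of these marker differences in the results that follow was not tested.

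Among the Wnt genes, 37 had enough reads for a test, of which 12 were higher, 21 lower and 4 not called in Setdb2KO-labelled libraries. Across all 13509 genes tested, 83.8% were called, 41.5% higher and 42.3% lower, so being called is the common state of a gene in this comparison and a share near it is no result about Wnt genes. Changes of at least 2-fold were called in 11 of the 37, with 10 lower and 1 higher, against 16.2% lower and 16.4% higher among all genes. The median log2 fold change was -0.35 over the Wnt genes and 0.0045 over all genes tested. In 31 of the 37 the libraries of the groups did not overlap, as in 84.6% of all genes. In RNA from whole cultures, fewer cells of a type and less RNA per cell cannot be told apart.

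**Figure D1:**
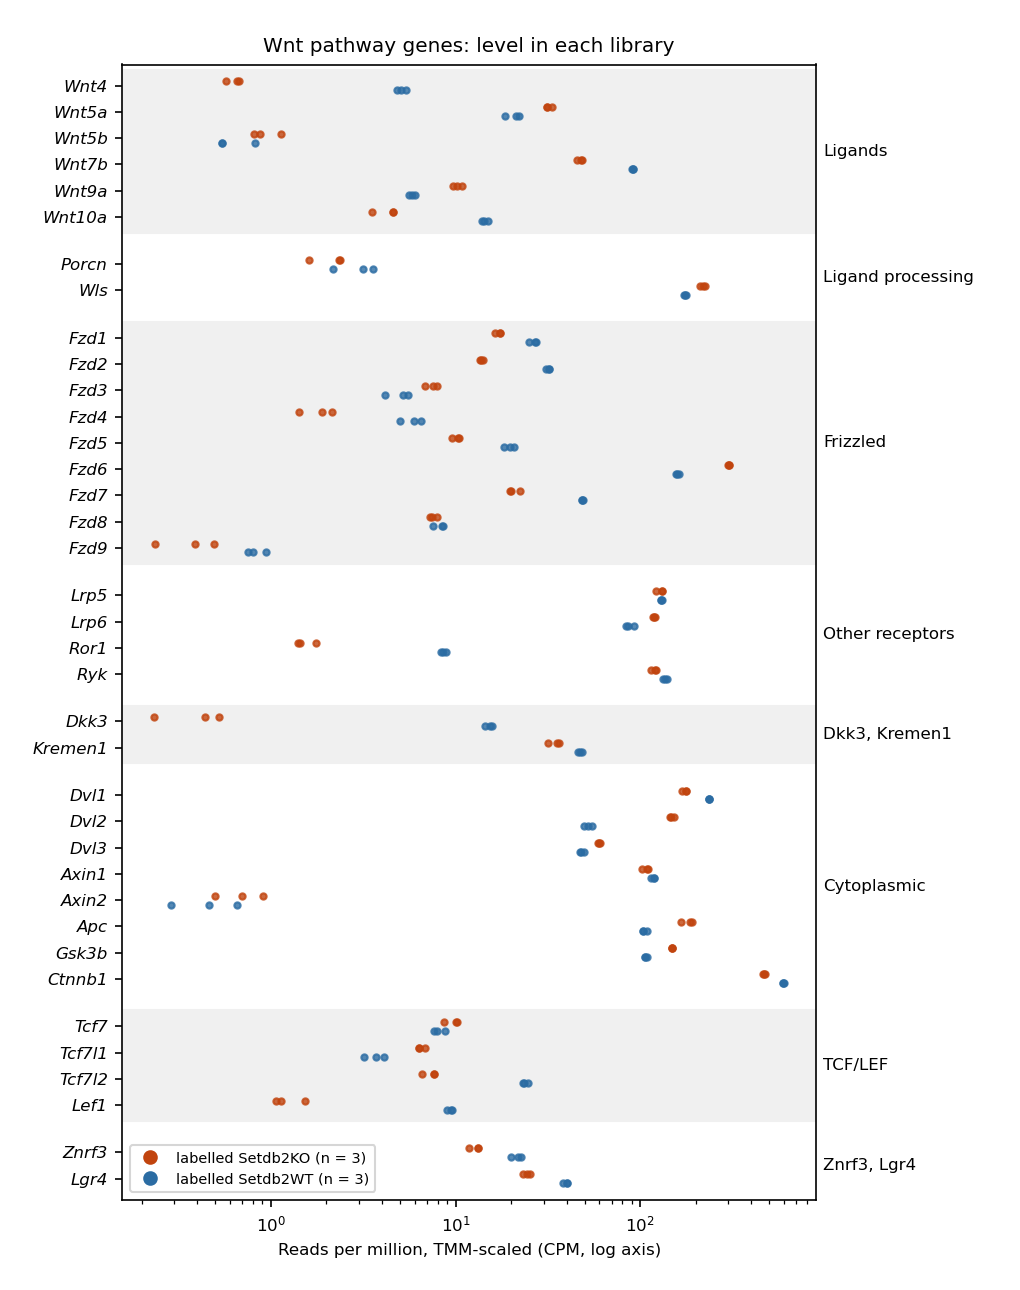
Level of the 37 tested Wnt pathway genes in each library, as TMM-scaled CPM on a log axis, grouped by role, with each point 1 library (red, labelled Setdb2KO; blue, labelled Setdb2WT). Dkk3, Wnt4 and Lef1 show the widest gaps, with the red points lower, and Fzd6 stands far above the other Frizzled genes in both groups.

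Promoter windows were searched for letters that TCF and LEF factors prefer, because several Wnt genes are themselves targets of the pathway. The windows were the 250 bases before an annotated start in RefSeq (GRCm38.p6), and 33 of the 49 genes had at least 1. The letters were CTTTGAT and CTTTGAA, which differ in the last base, on both strands. They stood in 3 of 43 windows of Wnt genes (6.98%) and in 7.48% of 32851 windows of all genes. Only windows of Wnt5b, Wnt11 and Dkk1 held a match among the Wnt genes searched. Of the other Wnt genes that are also known targets, Axin2, Lef1, Tcf7, Nkd1 and Rnf43 had windows, with no match. Shown are the windows of Axin2, the usual readout of β-catenin activity, of Lef1, the target gene with the largest fall, and of Dkk1, the only one of these targets with a match, written 5′ to 3′ on the strand of the gene in lower case with the match in capitals. They lie at chr11:108920099-108920348 (Axin2, plus strand), chr3:131110047-131110296 (Lef1, plus strand, the most upstream of 4 windows) and chr19:30549497-30549746 (Dkk1, minus strand).
Axin2: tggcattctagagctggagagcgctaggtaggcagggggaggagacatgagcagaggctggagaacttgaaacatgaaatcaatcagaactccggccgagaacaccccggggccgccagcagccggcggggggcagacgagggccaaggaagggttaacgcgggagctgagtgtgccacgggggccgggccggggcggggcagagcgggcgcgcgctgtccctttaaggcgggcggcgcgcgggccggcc
Lef1: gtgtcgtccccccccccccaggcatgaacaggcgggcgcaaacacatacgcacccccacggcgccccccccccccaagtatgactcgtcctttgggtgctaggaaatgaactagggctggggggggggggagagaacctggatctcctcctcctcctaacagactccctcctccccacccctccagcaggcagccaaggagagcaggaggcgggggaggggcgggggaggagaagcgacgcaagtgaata
Dkk1: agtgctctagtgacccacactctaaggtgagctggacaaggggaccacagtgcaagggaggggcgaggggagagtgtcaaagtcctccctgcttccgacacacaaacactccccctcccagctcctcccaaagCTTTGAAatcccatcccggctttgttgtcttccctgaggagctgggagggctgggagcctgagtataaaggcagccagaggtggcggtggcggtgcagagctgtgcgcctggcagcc
The GC content of these windows was 69.2% for Axin2, 66.4% for Lef1 and 60.8% for Dkk1, against a median of 52.4% over all windows. The match in Dkk1 begins 117 bases before the start. A match or its absence describes these letters in this window and says nothing of binding.

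Of the 9 ligands, 6 had enough reads for a test, of which 3 fell, 2 rose and 1 did not pass. Wnt4, needed in nephron formation, had 22, 26 and 25 reads in Setdb2KO-labelled libraries and 178, 191 and 167 in Setdb2WT-labelled ones. It fell 8.06-fold, to 0.631 ± 0.055 CPM in Setdb2KO-labelled libraries, against 5.10 ± 0.31 CPM in Setdb2WT-labelled ones (SD, n = 3 each; log2 fold change -3.01, SE 0.18, adjusted p = 1.1e-09, edgeR). Every library labelled Setdb2KO lay far below every library labelled Setdb2WT. Wnt10a, a ligand of ectodermal appendages, had 177, 136 and 175 reads in Setdb2KO-labelled libraries and 521, 506 and 482 in Setdb2WT-labelled ones. This was a fall to 4.22 ± 0.61 CPM in Setdb2KO-labelled libraries, against 14.4 ± 0.52 CPM in Setdb2WT-labelled ones (SD, n = 3 each; log2 fold change -1.77, SE 0.11, adjusted p = 1.4e-09, edgeR). Wnt7b, a ligand of the β-catenin branch in kidney epithelium, was the most abundant ligand per transcript length in both groups. It had 1842, 1872 and 1740 reads in Setdb2KO-labelled libraries and 3196, 3236 and 3122 in Setdb2WT-labelled ones, a fall of 1.93-fold (adjusted p = 2.1e-11, edgeR).

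A pair of ligands moved the other way. Wnt5a, which mostly acts outside the β-catenin branch, had 1207, 1285 and 1200 reads in Setdb2KO-labelled libraries and 746, 651 and 764 in Setdb2WT-labelled ones, a rise of 1.55-fold (log2 fold change 0.63, SE 0.07, adjusted p = 8.4e-07, edgeR). Wnt9a had 417, 396 and 370 reads in Setdb2KO-labelled libraries and 211, 205 and 195 in Setdb2WT-labelled ones and rose 1.76-fold (adjusted p = 1.8e-06, edgeR). Neither gene overlapped between the groups. Wnt5b, the close relative of Wnt5a, had 44, 34 and 31 reads in Setdb2KO-labelled libraries and 19, 29 and 19 in Setdb2WT-labelled ones and did not pass (log2 fold change 0.56, 95% interval -0.085 to 1.20, adjusted p = 0.097, edgeR). Wnt6, Wnt10b and Wnt11 had at most 6 reads in any library.

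Levels of different genes were set side by side as RPKM, CPM divided by the length in kilobases of the longest coding transcript. The 9 ligands summed to 23.8 ± 0.59 RPKM in Setdb2KO-labelled libraries and 38.8 ± 0.50 RPKM in Setdb2WT-labelled ones (SD, n = 3 each). Wnt7b made up 58.3% ± 0.85 of that sum in Setdb2KO-labelled libraries and 69.0% ± 0.47 in Setdb2WT-labelled ones. Wnt10a held 7.19% ± 1.1 in Setdb2KO-labelled libraries and 15.0% ± 0.36 in Setdb2WT-labelled ones. Wnt5a held 19.1% ± 0.69 in Setdb2KO-labelled libraries and 7.58% ± 0.72 in Setdb2WT-labelled ones, and Wnt9a held 12.9% ± 0.43 in Setdb2KO-labelled libraries and 4.52% ± 0.11 in Setdb2WT-labelled ones. By this scale the second place after Wnt7b was held by Wnt5a in Setdb2KO-labelled libraries and by Wnt10a in Setdb2WT-labelled ones. That order rests on the division by length, since by raw reads Wnt5a was second in both groups, and in Setdb2WT-labelled libraries it held 14.96% ± 1.3 of ligand reads and Wnt10a 10.4% ± 0.28.

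The 2 genes of ligand processing were both read in every library. Wls, the carrier that brings Wnt proteins to the cell surface, had 8485, 8156 and 8648 reads in Setdb2KO-labelled libraries and 6124, 6060 and 6181 in Setdb2WT-labelled ones, and rose 1.25-fold (adjusted p = 6.7e-07, edgeR). Porcn, the acyltransferase that adds the lipid, had 90, 92 and 62 reads in Setdb2KO-labelled libraries and 76, 126 and 110 in Setdb2WT-labelled ones, which overlap. Its log2 fold change of -0.49 (SE 0.22) passed narrowly (adjusted p = 0.047, edgeR) and ranged in adjusted p from 0.010 to 0.19 as single libraries were left out.

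All 9 listed Frizzled receptors were tested, and 6 fell, 2 rose and 1 did not pass. Fzd6, which is linked to planar polarity and can restrain the β-catenin branch, was the most abundant in both groups and rose. It had 11718, 11714 and 11451 reads in Setdb2KO-labelled libraries and 5497, 5693 and 5485 in Setdb2WT-labelled ones, or 301 ± 2.5 CPM in Setdb2KO-labelled libraries, against 159 ± 2.3 CPM in Setdb2WT-labelled ones (SD, n = 3 each; log2 fold change 0.92, SE 0.03, adjusted p = 1.4e-12, edgeR). The lowest library labelled Setdb2KO held more than every library labelled Setdb2WT by a wide margin. Fzd3, a polarity receptor of axons, had 291, 263 and 306 reads in Setdb2KO-labelled libraries and 145, 195 and 180 in Setdb2WT-labelled ones and rose by 0.59 on the log2 scale.

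The receptors next in abundance fell. Fzd7, a receptor of stem and progenitor cells, had 868, 760 and 770 reads in Setdb2KO-labelled libraries and 1709, 1712 and 1690 in Setdb2WT-labelled ones. It fell to 20.7 ± 1.5 CPM in Setdb2KO-labelled libraries, against 48.7 ± 0.18 CPM in Setdb2WT-labelled ones (SD, n = 3 each; log2 fold change -1.23, SE 0.06, adjusted p = 6.8e-11, edgeR). Fzd2, a receptor for Wnt5a among others, had 527, 542 and 528 reads in Setdb2KO-labelled libraries and 1124, 1133 and 1073 in Setdb2WT-labelled ones (means 13.8 ± 0.19 CPM in Setdb2KO-labelled libraries and 31.7 ± 0.75 CPM in Setdb2WT-labelled ones, SD, n = 3 each; log2 fold change -1.20, SE 0.06, adjusted p = 1e-10, edgeR). In neither gene did the groups overlap. Fzd4, a receptor for the vascular ligand norrin as well as for Wnt proteins, had 55, 83 and 73 reads in Setdb2KO-labelled libraries and 174, 229 and 206 in Setdb2WT-labelled ones. It fell to 1.82 ± 0.37 CPM in Setdb2KO-labelled libraries, against 5.80 ± 0.77 CPM in Setdb2WT-labelled ones (SD, n = 3 each; log2 fold change -1.67, SE 0.17, adjusted p = 5e-07, edgeR). Fzd1 and Fzd5 fell 1.55-fold and 1.94-fold. Fzd9, at 19, 15 and 9 reads in Setdb2KO-labelled libraries and 28, 33 and 26 in Setdb2WT-labelled ones, fell 2.22-fold on few reads. Fzd8 did not pass, with 306, 290 and 279 reads in Setdb2KO-labelled libraries and 299, 265 and 295 in Setdb2WT-labelled ones (log2 fold change -0.11, 95% interval -0.32 to 0.093, adjusted p = 0.28, edgeR).

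Per transcript length, the sum over Frizzled genes was 85.8 ± 0.70 RPKM in Setdb2KO-labelled libraries and 68.2 ± 0.58 RPKM in Setdb2WT-labelled ones (SD, n = 3 each), although most of its genes were lower. Fzd6 held 81.2% ± 0.22 of that sum in Setdb2KO-labelled libraries and 53.8% ± 0.39 in Setdb2WT-labelled ones. Fzd7 held 5.32% ± 0.36 in Setdb2KO-labelled libraries and 15.7% ± 0.16 in Setdb2WT-labelled ones. Fzd2 held 4.39% ± 0.077 in Setdb2KO-labelled libraries and 12.7% ± 0.24 in Setdb2WT-labelled ones. The receptor set was therefore read mostly from Fzd6 in Setdb2KO-labelled libraries, with the other 8 genes below 6% each.

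**Figure D2:**
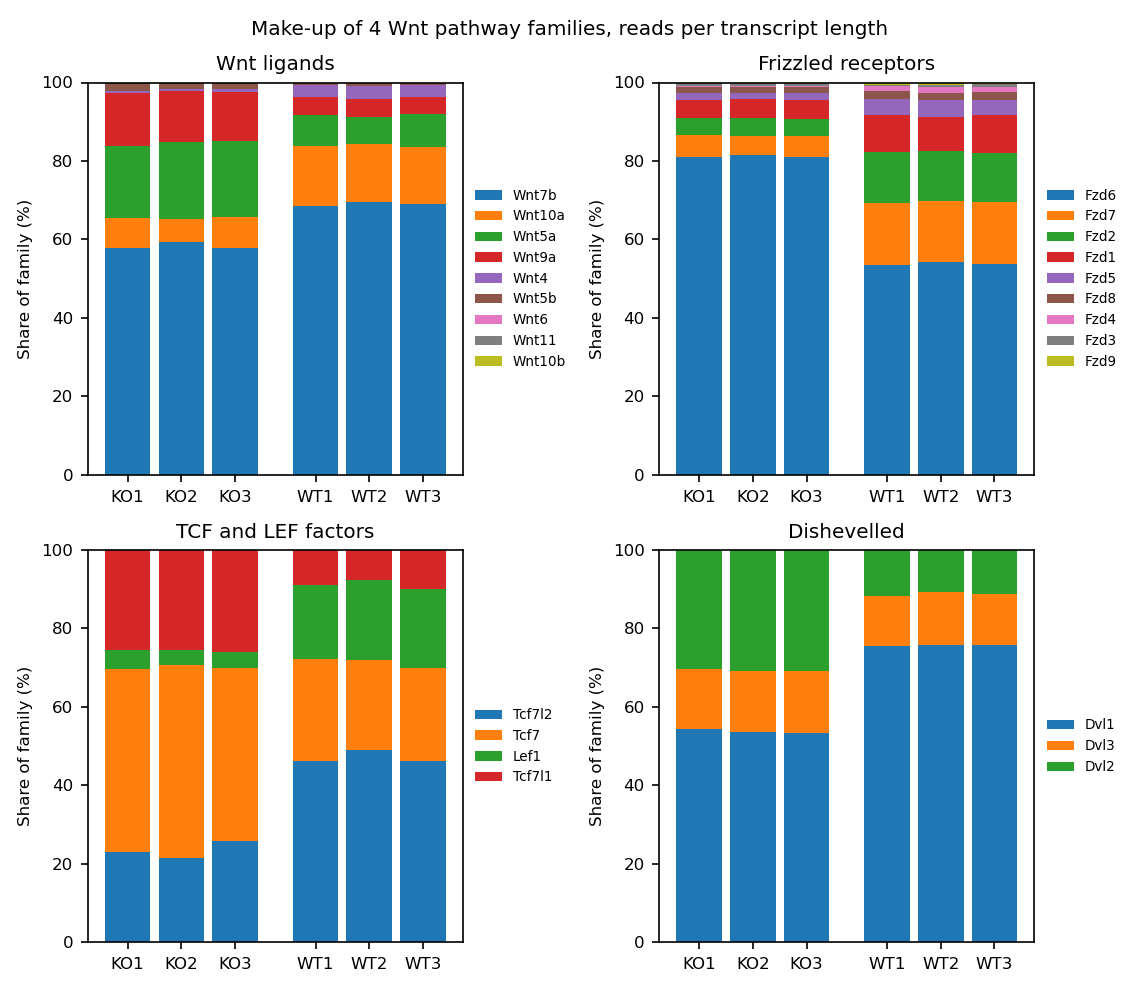
Share (%) of each gene in the summed reads per transcript length of its family, for ligands, Frizzled receptors, TCF and LEF factors and Dishevelled genes, with 1 bar per library (KO1 to KO3, labelled Setdb2KO; WT1 to WT3, labelled Setdb2WT). Fzd6 fills about 81.2% of the Frizzled bars in Setdb2KO-labelled libraries and 53.8% in Setdb2WT-labelled ones, and bars of the same group look alike.

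The co-receptors and other receptors moved less, apart from Ror1. Ror1, a receptor tyrosine kinase that binds Wnt5a, had 54, 56 and 67 reads in Setdb2KO-labelled libraries and 311, 300 and 289 in Setdb2WT-labelled ones. It fell to 1.53 ± 0.19 CPM in Setdb2KO-labelled libraries, against 8.57 ± 0.30 CPM in Setdb2WT-labelled ones (SD, n = 3 each; log2 fold change -2.48, SE 0.13, adjusted p = 3.2e-10, edgeR), in the same libraries in which Wnt5a itself was higher. Lrp6, a co-receptor of the β-catenin branch, had 4619, 4530 and 4598 reads in Setdb2KO-labelled libraries and 3224, 2948 and 3007 in Setdb2WT-labelled ones and rose 1.36-fold (adjusted p = 1.2e-07, edgeR). Its partner Lrp5 had 5097, 5099 and 4654 reads in Setdb2KO-labelled libraries and 4553, 4644 and 4528 in Setdb2WT-labelled ones and did not pass (log2 fold change -0.027, 95% interval -0.11 to 0.054, adjusted p = 0.51, edgeR). Ryk, an atypical receptor kinase for Wnt proteins, fell 1.15-fold. Scaling by total counts alone shifted all genes by a median of 0.15 on the log2 scale, which put Lrp5 higher (log2 fold change 0.13, adjusted p = 0.0072) and took Ryk out of the called genes (adjusted p = 0.29).

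Among the secreted inhibitors, Dkk3 showed the largest change of all 37 tested Wnt genes. Dkk3, a secreted Dickkopf family member that unlike Dkk1 does not clearly bind the LRP co-receptors, had 9, 17 and 20 reads in Setdb2KO-labelled libraries and 506, 541 and 550 in Setdb2WT-labelled ones. Levels were 0.398 ± 0.15 CPM in Setdb2KO-labelled libraries, against 15.2 ± 0.68 CPM in Setdb2WT-labelled ones (SD, n = 3 each; log2 fold change -5.25, SE 0.17, adjusted p = 1.3e-12, edgeR). Summed reads were 38.3-fold lower (exact 95% interval 28.6 to 52.5, for counting error alone). The classical inhibitors were close to unread, with at most 1 read of Dkk1, 7 of Dkk2 and 2 of Sfrp1 in any library. Kremen1, a receptor through which Dickkopf proteins remove LRP6 from the surface, had 1373, 1407 and 1214 reads in Setdb2KO-labelled libraries and 1696, 1630 and 1652 in Setdb2WT-labelled ones and fell 1.37-fold (adjusted p = 3.2e-06, edgeR).

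The 3 Dishevelled genes, which relay the receptor signal, changed unequally. Dvl2 had 5702, 5928 and 5599 reads in Setdb2KO-labelled libraries and 1917, 1741 and 1805 in Setdb2WT-labelled ones. With TMM scaling Dvl2 was the only Wnt gene called at least 2-fold higher. It rose to 149 ± 3.8 CPM in Setdb2KO-labelled libraries, against 52.0 ± 2.7 CPM in Setdb2WT-labelled ones (SD, n = 3 each; log2 fold change 1.52, SE 0.04, adjusted p = 3.3e-13, edgeR). Dvl3 rose 1.24-fold and Dvl1, the most abundant of the family, fell 1.35-fold. Dvl1 held 53.8% ± 0.51 of the family's reads per length in Setdb2KO-labelled libraries and 75.8% ± 0.24 in Setdb2WT-labelled ones, and Dvl2 held 30.6% ± 0.36 in Setdb2KO-labelled libraries and 11.2% ± 0.53 in Setdb2WT-labelled ones. The family summed to 96.5 ± 2.1 RPKM in Setdb2KO-labelled libraries and 92.6 ± 0.65 RPKM in Setdb2WT-labelled ones. The exons of Dvl2 share 18.3% of their bases with Acadvl on the opposite strand in GENCODE M21, and the strand setting of the counting is not given. Acadvl moved the other way, with 1184, 1311 and 1432 reads in Setdb2KO-labelled libraries and 3378, 3326 and 3361 in Setdb2WT-labelled ones.

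Of the 4 destruction complex genes, Apc and Gsk3b rose, Axin1 fell and Axin2 did not pass, and the gene of β-catenin fell. Apc, the scaffold that presents β-catenin for phosphorylation, had 7159, 6427 and 7307 reads in Setdb2KO-labelled libraries and 3621, 3639 and 3766 in Setdb2WT-labelled ones and rose 1.72-fold (adjusted p = 1.3e-09, edgeR). Gsk3b, the kinase of the complex, had 5754, 5742 and 5738 reads in Setdb2KO-labelled libraries and 3727, 3822 and 3673 in Setdb2WT-labelled ones and rose 1.39-fold (adjusted p = 3.7e-09, edgeR). In both genes the groups stood apart. Ctnnb1, which encodes β-catenin, had 18329, 17903 and 18056 reads in Setdb2KO-labelled libraries and 20853, 21008 and 21028 in Setdb2WT-labelled ones, and fell 1.28-fold (log2 fold change -0.35, SE 0.03, adjusted p = 2e-08, edgeR). β-catenin is controlled at the protein level, which RNA counts do not show. Axin1, the other scaffold of the complex, fell 1.10-fold (adjusted p = 0.0050, edgeR), but under total-count scaling alone its log2 fold change was 0.022 and did not pass. Axin2 had 27, 35 and 19 reads in Setdb2KO-labelled libraries and 10, 23 and 16 in Setdb2WT-labelled ones, which overlap, and did not pass (log2 fold change 0.58, 95% interval -0.22 to 1.38, adjusted p = 0.16, edgeR). At this depth a 2-fold difference of Axin2 in the upward direction lies within the interval.

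The TCF and LEF factors split into a pair that fell and a pair that rose. Lef1 had 59, 44 and 41 reads in Setdb2KO-labelled libraries and 315, 337 and 327 in Setdb2WT-labelled ones. It fell 7.48-fold, to 1.24 ± 0.25 CPM in Setdb2KO-labelled libraries, against 9.32 ± 0.28 CPM in Setdb2WT-labelled ones (SD, n = 3 each; log2 fold change -2.90, SE 0.14, adjusted p = 1.4e-10, edgeR). Tcf7l2, the usual partner of β-catenin in epithelial cells, had 295, 256 and 294 reads in Setdb2KO-labelled libraries and 825, 869 and 808 in Setdb2WT-labelled ones. It fell to 7.30 ± 0.60 CPM in Setdb2KO-labelled libraries, against 23.8 ± 0.74 CPM in Setdb2WT-labelled ones (SD, n = 3 each; log2 fold change -1.71, SE 0.08, adjusted p = 6e-11, edgeR). Tcf7l1, which acts mainly as a repressor, had 265, 247 and 243 reads in Setdb2KO-labelled libraries and 130, 112 and 142 in Setdb2WT-labelled ones and rose 1.78-fold (adjusted p = 2.4e-05, edgeR). Tcf7 had 394, 388 and 334 reads in Setdb2KO-labelled libraries and 306, 271 and 275 in Setdb2WT-labelled ones, and its rise of 1.19-fold (adjusted p = 0.030, edgeR) did not pass without Setdb2KO replicate 1 or 2 or without Setdb2WT replicate 2 or 3 (adjusted p up to 0.12).

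The 4 factors summed to 8.37 ± 0.45 RPKM in Setdb2KO-labelled libraries and 13.6 ± 0.11 RPKM in Setdb2WT-labelled ones (SD, n = 3 each). Tcf7l2 held 23.5% ± 2.2 of that sum in Setdb2KO-labelled libraries and 47.2% ± 1.5 in Setdb2WT-labelled ones, and Lef1 held 4.25% ± 0.60 in Setdb2KO-labelled libraries and 19.7% ± 0.74 in Setdb2WT-labelled ones. Tcf7 held 46.6% ± 2.5 in Setdb2KO-labelled libraries and 24.2% ± 1.5 in Setdb2WT-labelled ones. Tcf7l1 held 25.6% ± 0.41 in Setdb2KO-labelled libraries and 8.86% ± 1.1 in Setdb2WT-labelled ones. The leading factor per length was Tcf7 in Setdb2KO-labelled libraries and Tcf7l2 in Setdb2WT-labelled ones. Lef1 shares 13.7% of its exon bases with an antisense gene in GENCODE M21, Ctnnb1 14.6% and Fzd5 17.8%, which leaves their counts uncertain where strand was not used.

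Of the 5 feedback and R-spondin genes, Znrf3 and Lgr4 had enough reads for a test and both fell. Znrf3, a ubiquitin ligase that clears Frizzled from the surface, had 513, 512 and 456 reads in Setdb2KO-labelled libraries and 700, 771 and 790 in Setdb2WT-labelled ones, a fall of 1.68-fold (adjusted p = 3.6e-07, edgeR). Lgr4, the R-spondin receptor that holds Znrf3 in check, had 900, 942 and 967 reads in Setdb2KO-labelled libraries and 1327, 1415 and 1398 in Setdb2WT-labelled ones and fell 1.62-fold (adjusted p = 2e-08, edgeR). Rnf43, the relative of Znrf3, was too rare for the test, with 25, 11 and 9 reads in Setdb2KO-labelled libraries and 3, 0 and 1 in Setdb2WT-labelled ones. Its groups do not overlap, and the ratio of summed reads was 10.2 (exact 95% interval 3.72 to 39.1, counting error only). Nkd1 had at most 1 read in any library and Nkd2 at most 8.

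**Figure D3:**
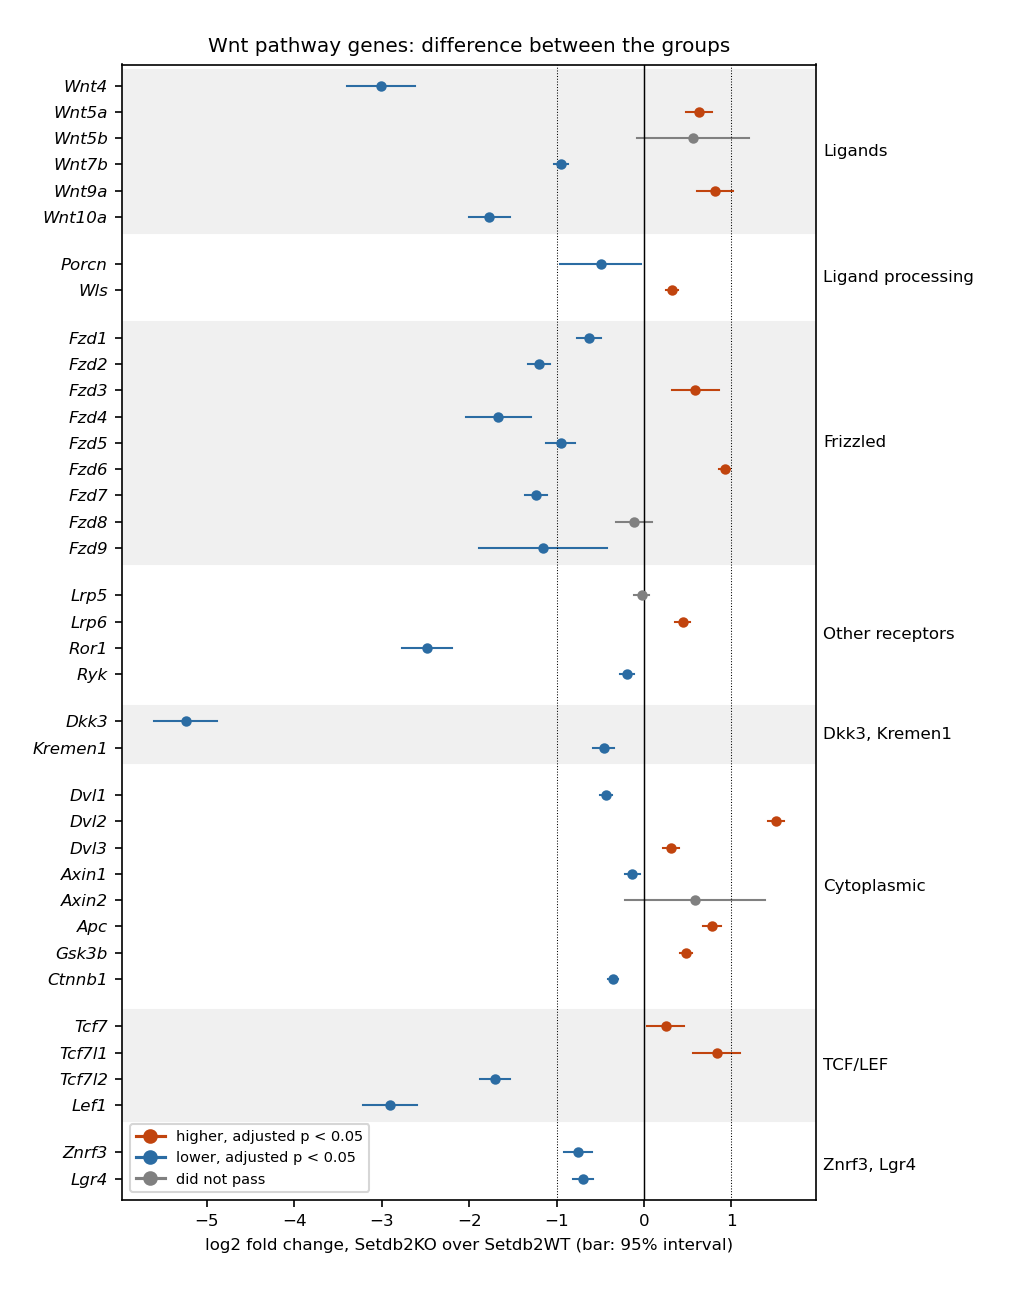
log2 fold change of Setdb2KO-labelled libraries over Setdb2WT-labelled ones for the 37 tested Wnt genes by role, with the 95% interval as a bar, dotted lines at 2-fold, and colour for the call at adjusted p < 0.05. Dkk3 lies farthest to the left at -5.25, Dvl2 farthest to the right at 1.52, and the ligands, Frizzled, Dishevelled and TCF genes fall on both sides of 0.

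Genes known elsewhere as β-catenin targets did not move in a common direction. Of 39 listed, 34 were in the table and 24 were tested, 7 of the 39 being Wnt genes described above. Among the 24, the test called 11 higher and 11 lower and left 2 uncalled (91.7% called, against 83.8% of all genes). Changes of at least 2-fold were called in 50% of the 24, with 8 lower and 4 higher. Among all genes that share was 32.6%, with 16.2% lower and 16.4% higher. The median log2 fold change of the 24 was 0.017, and without the Wnt genes 10 of 20 rose and 9 fell. Myc, a growth-promoting transcription factor, had 12346, 13295 and 12258 reads in Setdb2KO-labelled libraries and 4771, 5022 and 4827 in Setdb2WT-labelled ones and rose 2.35-fold. Ccnd1, the cyclin that drives entry into the cell cycle, had 3664, 3886 and 3590 reads in Setdb2KO-labelled libraries and 20169, 19521 and 19509 in Setdb2WT-labelled ones and fell 5.86-fold. Both are commonly cited targets of the same pathway, and they lay on opposite sides. Id2, which blocks DNA binding of basic helix-loop-helix proteins, fell 3.27-fold, Met, the receptor of hepatocyte growth factor, 2.65-fold, and the adhesion receptor Cd44 2.52-fold. The edgeR adjusted p of these genes lay between 4.7e-16 and 8.9e-12.

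Of 71 other ligands, receptors and regulators of the β-catenin branch, 60 were in the table and 45 were tested. The test called 19 higher and 22 lower and left 4 uncalled (91.1% called, against 83.8% of all genes). The median log2 fold change of the 45 was -0.19. Changes of at least 2-fold were called in 24.4% of the 45, with 7 lower and 4 higher, against 32.6% of all genes. The acetyltransferases Ep300 and Crebbp, coactivators of β-catenin among many factors, rose 2.10-fold and 2.37-fold. Bcl9, which links β-catenin to Pygopus proteins, had 751, 673 and 725 reads in Setdb2KO-labelled libraries and 2018, 1880 and 1893 in Setdb2WT-labelled ones and fell 2.97-fold. Tle5, a short relative of the Groucho corepressors, fell 2.22-fold and the corepressor Ctbp1 1.80-fold. For these genes the edgeR adjusted p lay between 9.4e-14 and 5.9e-12. The other corepressor genes of the list did not move in a common direction. Tle4 rose 2.42-fold and Tle3 did not pass, while Tle2 fell 3.91-fold, Tle1 1.14-fold and Ctbp2 1.64-fold.

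In the β-catenin-independent branches, 39 of 40 listed genes were in the table and 34 were tested. Of the 34, 20 fell, 7 rose and the remaining 7 were not called (79.4% called). Among all genes tested 83.8% were called, 42.3% lower and 41.5% higher. The median log2 fold change of the 34 was -0.27. Changes of at least 2-fold were called in 35.3% of the 34, with 9 lower and 3 higher, against 32.6% of all genes. Prkca, a calcium-dependent protein kinase, had 568, 558 and 495 reads in Setdb2KO-labelled libraries and 2742, 2643 and 2531 in Setdb2WT-labelled ones and fell 5.38-fold. Plcb3, a phospholipase that releases calcium from stores, fell 3.16-fold, and Camk2b, a calmodulin-dependent kinase subunit, 3.84-fold. Celsr1, a planar polarity cadherin, had 189, 209 and 169 reads in Setdb2KO-labelled libraries and 807, 938 and 800 in Setdb2WT-labelled ones and fell 4.95-fold. Daam2, a formin that binds Dishevelled, had 2 reads in each Setdb2KO-labelled library and 140, 125 and 142 in Setdb2WT-labelled ones, a ratio of summed reads 74.8-fold lower (exact 95% interval 34.1 to 205, counting error only). In edgeR their adjusted p lay between 9.8e-15 and 3.2e-10. Of the 7 that rose, the 3 called at least 2-fold higher were Celsr3, Prickle4 (2.55-fold) and Prickle2 (2.22-fold).

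**Figure D4:**
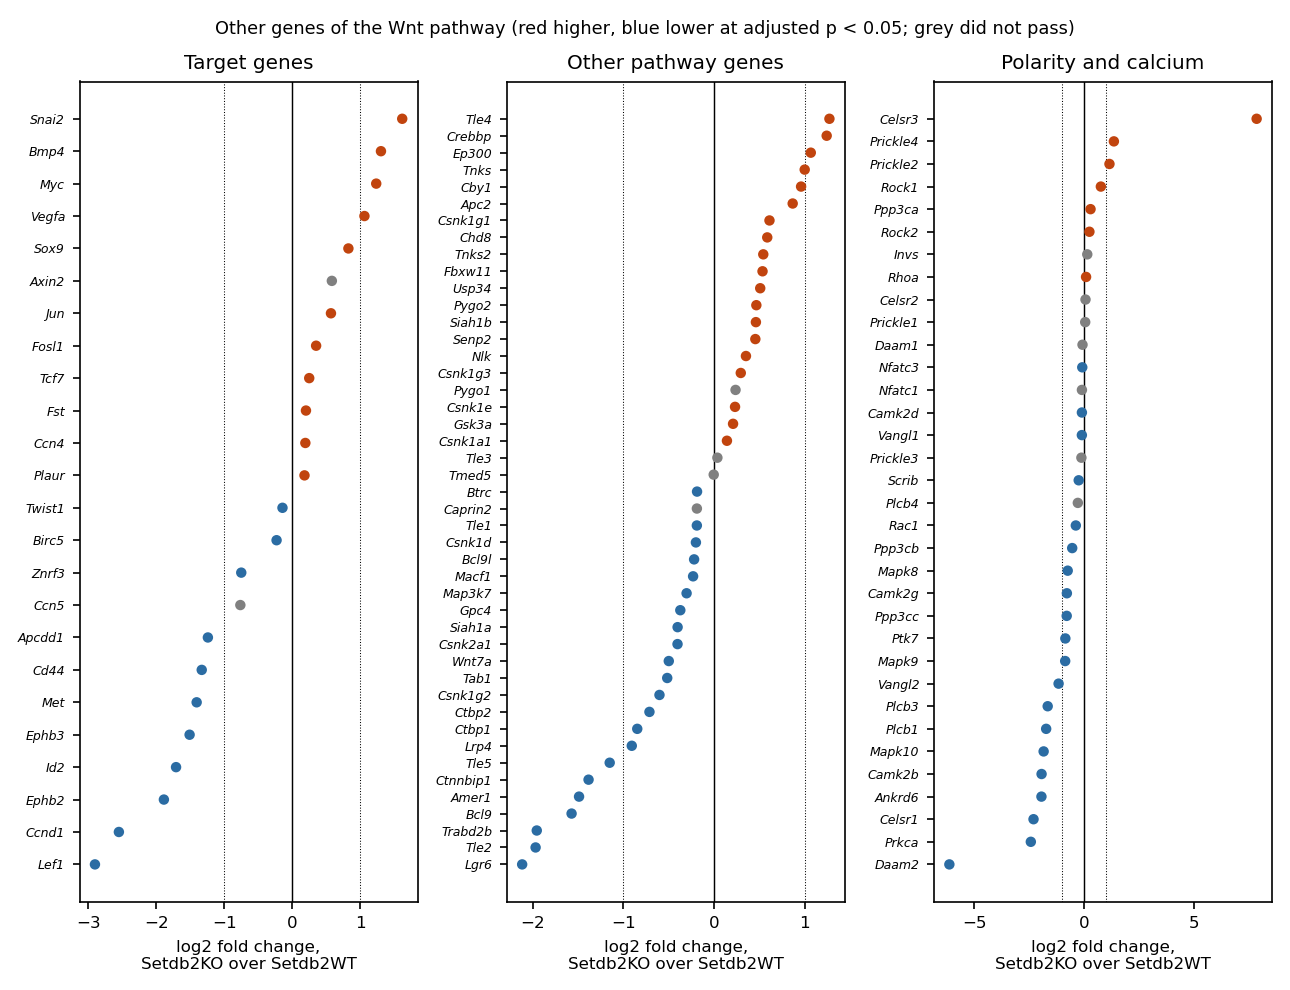
log2 fold change of Setdb2KO-labelled libraries over Setdb2WT-labelled ones for tested target genes, other β-catenin branch genes and genes of the polarity and calcium branches, sorted within a panel, with red higher, blue lower and grey not past the test. Among the targets 11 are red and 11 blue. Of the 34 polarity and calcium genes 20 are blue, where 42.3% of all genes tested were called lower. Celsr3, the rightmost point, had 90 reads over Setdb2KO-labelled libraries and 0 over Setdb2WT-labelled ones, so its plotted value depends on the fit's prior count; against a floor of 3 reads over the group it was at least 27.2-fold higher.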

How the data were processed

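RNA of 6 samples was measured by sequencing. The authors deposited 1 table of unnormalised counts, a row for each gene and a column for each library. The submitters' processing notes name fastp, HISAT, HTSeq and the build GRCm39, without roles, versions or the strand setting. Depth was 36461449 to 37129174 counts a library, and genes with few reads carry wide error. Within a group, libraries differed beyond sampling noise. The chi-square per degree of freedom between pairs was 2.51 to 2.65 in Setdb2WT-labelled libraries and 4.22 to 14.8 in Setdb2KO-labelled ones.

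Genes were tested in edgeR 4.0.16 (R 4.3.3) by quasi-likelihood with TMM, filterByExpr (minimum count 10) and a term for the label alone. Benjamini-Hochberg adjustment covered 13509 genes, with a threshold of 0.05. SE is the size of the log2 fold change divided by the square root of F. CPM and RPKM use TMM-scaled library sizes, and RPKM the longest coding transcript in GENCODE M21 (GRCm38). Ratios of summed reads have exact Clopper-Pearson 95% intervals. Scripts were tested on simulated data in which few genes differed, so the scaling was not tested where most genes differ, as here. All listed genes are accounted for, with full statistics for those called at least 2-fold at a mean CPM of at least 1. From each other list come up to 5 genes of smallest adjusted p, above 1 CPM on average and with groups apart. Members and lists were chosen with earlier results of these data known. Alternatives were DESeq2 1.42.0, limma-voom (limma 3.58.1), other scalings, filters, the replicate block and each library left out.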

Additional observations from a re-analysis of the deposited data

How the results depend on the processing

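Of the 33 called Wnt genes, at least 30 kept their call and direction under each alternative that gave them a value. Porcn lost its call under 7 of the 8 alternatives that keep all libraries, no filter being the exception, and Tcf7 under 4 of the 6 that leave a library out. Under total-count scaling, Ryk and Axin1 also lost their calls, and 3 log2 fold changes turned sign, to 0.040 for Fzd8, 0.13 for Lrp5 and 0.022 for Axin1. That of Lrp5 ranged from -0.046 to 0.012 as single libraries were left out, above 0 without Setdb2KO replicate 3. Under total-count scaling Wnt5b passed (adjusted p = 0.039), and the log2 fold change of Setdb2 was 0.88 and passed (adjusted p = 0.043). By the same scaling Fzd6 also exceeded 2-fold (log2 fold change 1.08) and Fzd9 no longer reached it (-0.997). Which Wnt genes count as 2-fold therefore depends on the scaling. Counts of called Wnt genes ranged over all alternatives from 11 to 14 higher and from 18 to 21 lower. Same-numbered libraries did not deviate together (r from -0.042 to -0.0016). No library correlated best with its own number, so the numbers were not taken as pairs. The replicate block left 12 higher and 20 lower and changed no call of a Wnt gene other than Porcn. Shares depend on the length used. From raw reads without length Wnt7b held 49.5% of ligand reads in Setdb2KO-labelled libraries and 66.1% in Setdb2WT-labelled ones, and Fzd6 held 79.3% of Frizzled reads in Setdb2KO-labelled libraries and 52.1% in Setdb2WT-labelled ones. With the median coding transcript length, chosen after seeing the data, Wnt7b held 54.8% in Setdb2KO-labelled libraries and 63.9% in Setdb2WT-labelled ones. The cause of these changes was not tested beyond the settings named. Genes with under about 10 reads per library are limited by depth.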
